A study of Mus musculus with 12 samples.

Results

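Integrins, laminins and collagens are the receptors and the scaffold of cell attachment to the extracellular matrix. They were followed here in KPC cells, a line from pancreatic tumors of mice that carry Trp53 LSL-R172H and Pdx1-Cre among their alleles, treated with 20 μM cisplatin (Cis) for 6 or 21 h or with PBS. The members were chosen by gene symbol (Itga, Itgb, Lama, Lamb or Lamc with a number, and collagen alpha chains) and by a measured value, at least 1 read in a footprint library of PBS-treated cells. In all, 67 symbols matched and 50 of them had such a read, out of 15803 transcripts listed in the series. They comprise 10 integrin alpha chains, 8 integrin beta chains, 9 laminin chains, 8 chains of fibril-forming collagens, 3 chains of collagen IV and 12 chains of other collagens.

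An integrin is a pair of an alpha and a beta chain that spans the plasma membrane, binds matrix proteins outside the cell and connects to the actin cytoskeleton through adaptor proteins. Laminins are cross-shaped trimers of an alpha, a beta and a gamma chain, and with collagen IV they form the sheet of the basement membrane on which epithelial cells sit. Fibril-forming collagens such as types I, III and V give connective tissue its strength, and in pancreatic tumors most of them are made by fibroblasts.

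Ribosome profiling measures the RNA fragments that ribosomes protect (footprints), and RNA-seq of the same kind of lysate measures the amount of each mRNA. Each assay had 2 libraries for each of the 3 groups, 12 libraries in all, and the same PBS libraries served both time points. The labels call the controls untreated, whereas the methods give PBS for 6 or 21 h, so the length of the control treatment is not known. The cells carry the mutant Trp53 allele in every group, they are a single line, and nothing states that the 2 libraries of a group came from separate cultures, so the p-values measure only the spread between these libraries. Values are RPKM as deposited, that is, reads scaled to the size of the library and to the length of the coding sequence (footprints) or of the transcript (RNA). Depth ranged from 3375480 to 5204127 reads for footprints and from 1985344 to 2901692 for RNA, of which only 862476 to 1341584 lay outside 3 abundant transcripts. All 6 epithelial markers were detected in footprints, though Epcam did not exceed 1.83 RPKM, and their sum was 9101 to 9781 RPKM with PBS, 9298 to 9356 at 6 h and 6697 to 6838 at 21 h. Krt8 had 4819 and 4679 RPKM with PBS and 3214 and 3261 at 21 h, and Krt19 had 3082 and 2683 and then 1716 and 1608. Krt18 had 1720 and 1570 with PBS and 1668 and 1856 at 21 h, so the PBS and 21 h libraries overlapped for it and not for Krt8 and Krt19. Fibroblast markers summed to 11.3 to 12.1 RPKM with PBS, 9.40 to 17.6 at 6 h and 7.02 to 7.48 at 21 h in footprints. Most of that sum was Acta2 (5.32 to 15.4), and Fap was at 0 in every footprint library. Leukocyte markers summed to 1.63 to 2.35 RPKM with PBS, 1.73 to 2.31 at 6 h and 3.12 to 6.14 at 21 h, mostly Cd68, and endothelial markers to no more than 0.666. The part of these markers in the results was not tested.

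Col4a1 and Col4a2 encode the chains of the most widespread collagen IV trimer and lie head to head on opposite strands, and their promoters are shown because both genes fell in footprints and in RNA and share sequence at their starts. RefSeq gives promoter windows of 300 bases (250 before to 50 after the annotated start) on GRCm38.p6, whereas the reads were placed on GRCm39. Here 37 of the 50 members had a window in that table. The annotated starts of the pair have 20 bases between them, each inside the other transcript, and the windows share 78 bases, in capitals, which are reverse complements of each other. The windows are chr8:11312777-11313076 on the minus strand for Col4a1 and chr8:11312555-11312854 on the plus strand for Col4a2.
Col4a1: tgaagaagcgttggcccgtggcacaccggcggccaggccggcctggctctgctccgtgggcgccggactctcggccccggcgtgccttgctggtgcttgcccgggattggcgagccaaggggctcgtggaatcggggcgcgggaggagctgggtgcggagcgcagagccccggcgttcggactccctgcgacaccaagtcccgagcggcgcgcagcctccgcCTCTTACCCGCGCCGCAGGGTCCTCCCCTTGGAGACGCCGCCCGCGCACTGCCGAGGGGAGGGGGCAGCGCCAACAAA
Col4a2: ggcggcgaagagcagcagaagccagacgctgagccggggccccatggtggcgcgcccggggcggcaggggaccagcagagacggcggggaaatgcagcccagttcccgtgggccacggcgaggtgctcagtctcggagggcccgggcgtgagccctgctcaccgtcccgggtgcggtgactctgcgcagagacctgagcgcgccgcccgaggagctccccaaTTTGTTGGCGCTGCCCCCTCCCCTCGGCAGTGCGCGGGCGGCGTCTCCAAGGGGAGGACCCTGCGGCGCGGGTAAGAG

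These windows had GC contents of 74.0% and 73.7%, against a median of 59.3% over 42 windows of members and 52.7% over all 32851 windows in the table. Neither held TATAAA, each held CCAAT once, and GGGCGG occurred once for Col4a1 and 3 times for Col4a2 (either strand, where CCAAT read backwards can overlap GGGCGG). Among members, GGGCGG, the core letters of a GC box, was in 25 of 42 windows (59.5%) against 35.7% of all windows. CCAAT was in 12 of 42 (28.6%) against 37.4%, and TATAAA in 1 (2.38%) against 13.6%. TGANTCA, the letters bound by AP-1 factors, was in 3 of 42 (7.14%) against 7.81% of all windows. These are matches of letters in a window and not sites of binding.

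In PBS-treated cells 3 integrin chains, Itgb1, Itga3 and Itga6, had the highest footprint levels of all members. Itgb1, the beta chain shared by most integrins of epithelial cells, had 341 and 364 RPKM of footprints, above every other member in both libraries. Itga3 and Itga6, the alpha chains of the main laminin receptors, followed with 86.8 and 101 and with 74.2 and 71.8 RPKM. Among the beta chains Itgb3 had 22.3 and 27.3 RPKM and Itgb5 19.7 and 18.9, both of which pair with the alpha V chain. Itgb4, which pairs with Itga6 in hemidesmosomes, had only 1.58 and 1.34 RPKM, a ratio to Itga6 of 0.0200 ± 0.00193 (SD, n = 2).

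Of the laminin chains, Lamc1 and Lamb1 of the trimer with the alpha 5 chain were highest. Lama5 itself was near the middle of all transcripts with a PBS footprint read (percentile 51.5). Lamc1 had 43.3 and 50.2 RPKM of footprints, Lamb1 20.3 and 22.3 and Lama5 12.4 and 11.8. Of the laminin that anchors hemidesmosomes, the beta chain Lamb3 was at 6.91 and 8.63 RPKM and the alpha chain Lama3 had 1 read in each PBS library. Of the collagens, Col6a1 (59.0 and 60.3 RPKM) and Col6a2 (30.9 and 32.4), chains of the beaded filament collagen VI, were near Col4a1 (40.1 and 46.9) and Col18a1 (30.3 and 34.3), whose C-terminal fragment is endostatin. Col6a3, their usual partner in collagen VI, had 26 and 16 reads and no more than 0.622 RPKM. Col3a1 led the fibril-forming collagens with 8.09 and 7.96 RPKM, followed by Col5a1 with 1.29 and 1.56 and Col1a1 with 0.353 and 0.541.

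The order of levels was not resolved everywhere. Lamc1 and Col4a1, Col18a1 and Col6a2, and Itgb3 and Lamb1 are neighbors whose PBS libraries overlap, and so do those of each neighboring pair from Itgb5 through Col4a2 and Itgb7 to Itga2. By RNA the order was similar at the top, with Itgb1 at 83.0 and 87.1 RPKM, Itga6 at 34.1 and 35.5 and Itga3 at 31.6 and 28.8. By RNA, Itgb5 (16.1 and 15.1 RPKM), Col4a1 (15.4 and 16.9) and Col6a1 (12.3 and 13.9) came next, while Col27a1 had 1.23 and 0.407 RPKM and Col3a1 0.292 and 1.61. The Itgb5 ratio of mean footprint to mean RNA RPKM, 1.24 ± 0.06 (SD propagated from n = 2), was the lowest of the 21 members measured in both. That ratio is on a relative scale and was 3.44 for the median of 9292 transcripts, and 1.53 ± 0.07 for Lama5, 4.15 ± 0.24 for Itgb1, 4.55 ± 0.42 for Col6a1 and 6.40 ± 0.25 for Itga1.

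**Figure D1:**
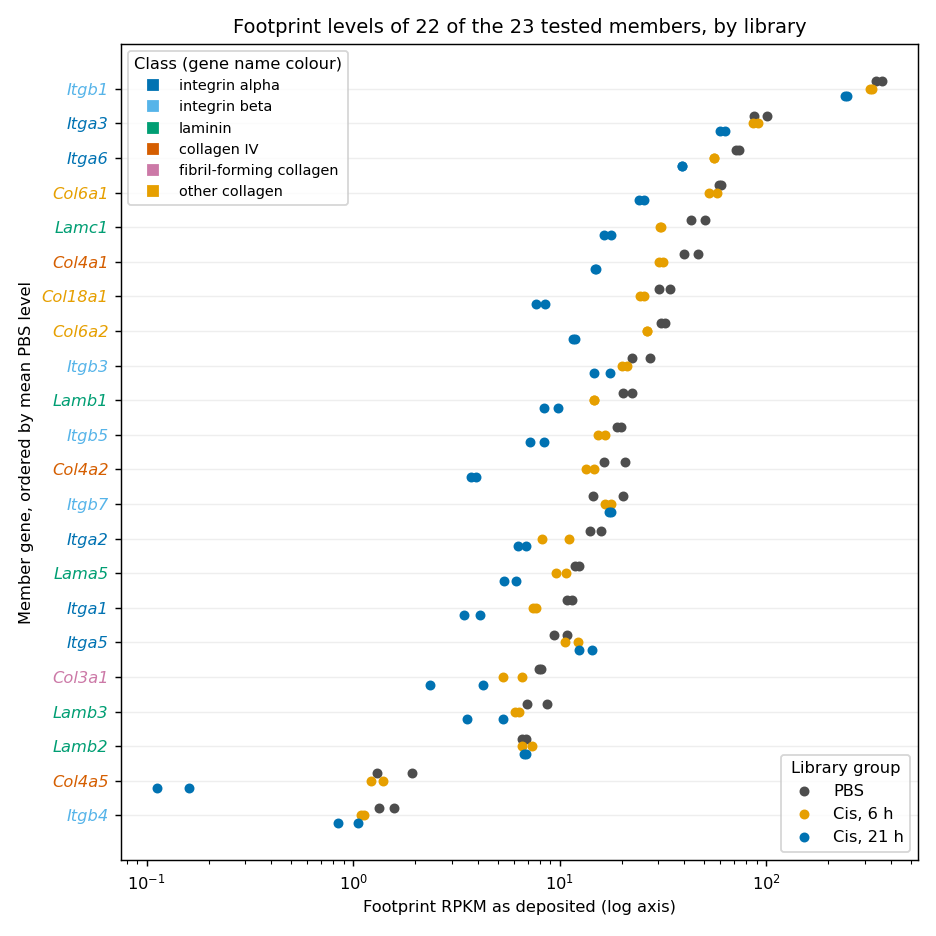
Footprint RPKM (log axis) of 22 of the 23 tested members in each library, ordered by mean PBS level, with 2 points for each group and gene names colored by class. The points of 21 h lie left of both PBS points for 19 of the 23 members, and right of them for Itga5.

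The first question was whether translation of these chains changed within 6 h of Cis. Of the 50 members, 23 reached the level needed for testing in footprints (a scaled RPKM of 1 or more on average) and were tested with limma across all 10383 transcripts. None passed at 6 h by limma (adjusted p under 0.05), against 2.04% of all transcripts tested, of which 2217 had an unadjusted p under 0.05. At an unadjusted p under 0.05 there were 7 members, all with a lower value at 6 h, and 11% of all transcripts were lower at that p. As a median, the log2 fold change was -0.28 over members and -0.01 over all transcripts. The rule used the presence of a PBS footprint read, but no matching symbol without one reached the level required for testing, so the rule removed no tested gene.

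The 7 members were Lamc1, Itga6, Col4a1, Lamb1, Itga2, Itga1 and Col18a1. Lamc1, the gamma chain of most laminins, had 43.3 and 50.2 RPKM with PBS and 31.0 and 30.7 at 6 h, a log2 fold change of -0.60 ± 0.13 (SE, limma adjusted p = 0.0545). Itga6 had 74.2 and 71.8 RPKM and then 56.1 in both libraries at 6 h, a log2 fold change of -0.39 ± 0.10 (limma adjusted p = 0.0759). Both libraries at 6 h were below both PBS libraries for each of them. With voom on the reads recovered from the RPKM values, these 7 and Col4a2 passed, 8 members lower and 0 higher, and 7.92% of all transcripts were called lower. Of all 10383 transcripts, voom called 822 lower and 454 higher. Lamc1 alone passed when either 21 h library was left out or only transcripts of at least 5 RPKM were kept.

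At 21 h 18 of the 23 tested members had lower footprints and none had higher ones (limma, adjusted p under 0.05). Over all transcripts tested, 20.2% were called lower and 18.9% higher. Members had a median log2 fold change of -1.15 and all transcripts one of 0.01. Both 21 h libraries lay below both PBS libraries for 19 of the 23, as for 32.5% of all transcripts. Voom called 18 members lower and 2 higher, Itga5 among them, beside 23% of all transcripts lower and 21.8% higher. All 3 chains of collagen IV fell, as did all 3 tested chains of other collagens, the 1 tested fibril-forming chain, 4 of 5 integrin alpha chains, 3 of 5 integrin beta chains and 4 of 6 laminin chains. Summed over the 50 members, footprint RPKM went from 894 and 967 with PBS to 804 and 793 at 6 h and to 536 and 550 at 21 h. That sum at 21 h was 58.4% of its mean with PBS. By class the figure ran from 29.5% for collagen IV and 36.9% for other collagens to 61.4% for integrin alpha and 68.6% for integrin beta chains. Such sums follow the most abundant chains. With PBS, Itgb1 alone made up a mean of 353 RPKM of the 417 of integrin beta chains and of the 930 of all members. In bulk samples, fewer cells that make a protein and less of it per cell cannot be told apart.

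**Figure D2:**
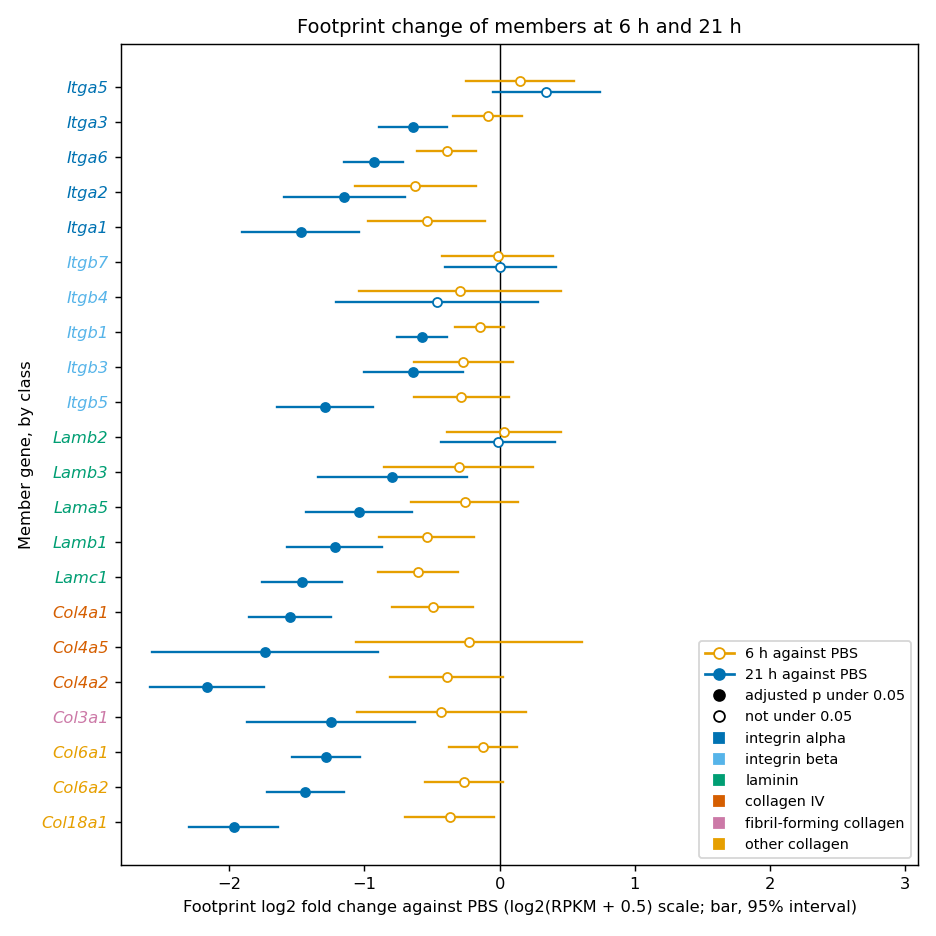
Footprint log2 fold changes against PBS (log2(RPKM + 0.5) scale) at 6 h and 21 h for 22 of the 23 tested members by class, with 95% intervals from limma; filled points have an adjusted p under 0.05. No point at 6 h is filled, and the 18 filled points at 21 h lie between -2.16 for Col4a2 and -0.58 for Itgb1.

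As a class, collagen IV had the lowest median fitted log2 fold change at 21 h (-1.73). Col18a1, of another class, was below Col4a1, and on the fitted scale also below Col4a5. Its place relative to Col4a5 is not resolved, since the fitted value of Col4a5 ran from -3.36 to -1.20 over the alternatives. Col4a2 had 16.3 and 20.7 RPKM of footprints with PBS, 14.6 and 13.5 at 6 h and 3.71 and 3.91 at 21 h. Its log2 fold change at 21 h was -2.16 ± 0.18 (SE, limma adjusted p = 8.43e-05). Col4a1 had 40.1 and 46.9 RPKM, then 31.7 and 30.2, then 14.8 and 14.9, a log2 fold change of -1.55 ± 0.13 at 21 h (limma adjusted p = 8.57e-05). For both genes of the head-to-head pair the 3 groups of libraries did not overlap. Col4a5, a chain of the X chromosome, had 51 and 31 reads with PBS, 29 and 24 at 6 h and 3 and 2 at 21 h, which is 0.0838 times the PBS rate of reads (95% exact binomial interval 0.0265 to 0.204, counting error only). Its fitted log2 fold change of -1.73 ± 0.37 (limma adjusted p = 0.00624) depends on the pseudocount at so few reads.

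The pair did not keep a fixed ratio. Col4a1 to Col4a2 in footprints was 2.46 and 2.27 with PBS, 2.17 and 2.24 at 6 h and 3.99 and 3.81 at 21 h. Both ratios at 21 h were above the other 4, but no p under 0.333 can come from an exact permutation test of 2 and 2 libraries, so none was run. In RNA the same ratio was 2.85 and 3.40 with PBS, 2.32 and 2.40 at 6 h and 3.43 and 4.00 at 21 h. The widespread trimer holds more alpha 1 than alpha 2 chains.

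Among the other collagens, Col18a1 had 30.3 and 34.3 RPKM of footprints with PBS, 25.7 and 24.6 at 6 h and 7.65 and 8.5 at 21 h. Its log2 fold change at 21 h was -1.97 ± 0.14 (limma adjusted p = 4.14e-05). Col6a1 had 59.0 and 60.3, then 52.7 and 58.0, then 24.2 and 25.5 RPKM, a log2 fold change of -1.28 ± 0.11 (limma adjusted p = 8.64e-05). Col6a2, its neighbor in the genome with no protein-coding gene between them, had 30.9 and 32.4, then 26.6 and 26.6, then 11.8 and 11.5 RPKM, a log2 fold change of -1.44 ± 0.13 (limma adjusted p = 0.000101). The libraries at 21 h were below all others for these 3 genes, and the ratio of Col6a1 to Col6a2 was 1.88 ± 0.03 with PBS and 2.13 ± 0.12 at 21 h (SD, n = 2). Col3a1, the chain of type III fibrils, had 8.09 and 7.96 RPKM with PBS and 2.35 and 4.24 at 21 h, a log2 fold change of -1.25 ± 0.27 (limma adjusted p = 0.00735).

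Of the laminin chains, Lamc1 had 17.8 and 16.3 RPKM of footprints at 21 h against 43.3 and 50.2 with PBS, a log2 fold change of -1.46 ± 0.13 (SE, limma adjusted p = 0.000111). Lamb1, its usual beta partner, had 20.3 and 22.3 RPKM with PBS, 14.7 and 14.6 at 6 h and 9.81 and 8.43 at 21 h, a log2 fold change of -1.22 ± 0.15 (limma adjusted p = 0.000538). Lama5, the alpha chain, had 12.4 and 11.8, then 10.7 and 9.62, then 6.18 and 5.39 RPKM, a log2 fold change of -1.04 ± 0.17 (limma adjusted p = 0.00199). All 3 chains of this trimer therefore had both 21 h libraries below every other library. Lamc1 to Lamb1 was 2.19 ± 0.08 with PBS and 1.88 ± 0.09 at 21 h (SD, n = 2).

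The beta chain of the hemidesmosome laminin, Lamb3, had 6.91 and 8.63 RPKM of footprints with PBS, 6.39 and 6.09 at 6 h and 3.56 and 5.31 at 21 h. Its log2 fold change was -0.79 ± 0.24 (limma adjusted p = 0.0300). That call was lost without 21 h library 1, without either PBS library and with no filter on low values, with adjusted p up to 0.181 over all alternatives. Lamb2, a beta chain of muscle and kidney basement membranes, had 6.59 and 6.84 RPKM with PBS and 6.73 and 6.90 at 21 h, with a 95% interval of the log2 fold change from -0.44 to 0.41.

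Of the 5 tested integrin alpha chains, the collagen receptors Itga1 and Itga2 had the lowest log2 fold changes. Itga1 had 11.4 and 10.8 RPKM of footprints with PBS, 7.65 and 7.46 at 6 h and 3.45 and 4.13 at 21 h, a log2 fold change of -1.47 ± 0.19 at 21 h (SE, limma adjusted p = 0.000576). Itga2, next to it in the genome and a collagen receptor too, had 14.0 and 15.8, then 11.1 and 8.21, then 6.29 and 6.89 RPKM, a log2 fold change of -1.15 ± 0.20 (limma adjusted p = 0.00226). For both genes the 3 groups did not overlap. Of the laminin receptor chains, Itga6 had 38.9 and 39.0 RPKM at 21 h, a log2 fold change of -0.93 ± 0.10 (limma adjusted p = 0.000209). Itga3 had 86.8 and 101 RPKM with PBS, 91.4 and 86.6 at 6 h and 59.4 and 63.4 at 21 h, a log2 fold change of -0.64 ± 0.11 (limma adjusted p = 0.00250). Itga5, the fibronectin receptor chain, had 9.43 and 10.9 RPKM with PBS and 14.3 and 12.4 at 21 h, and its log2 fold change of 0.35 ± 0.17 missed the threshold (limma adjusted p = 0.147).

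Among the beta chains, Itgb5 had 19.7 and 18.9 RPKM of footprints with PBS, 15.3 and 16.6 at 6 h and 7.203 and 8.42 at 21 h, a log2 fold change of -1.29 ± 0.15 (SE, limma adjusted p = 0.000414). Itgb1 had 341 and 364, then 324 and 320, then 240 and 245 RPKM, a log2 fold change of -0.58 ± 0.08 (limma adjusted p = 0.000876). Itgb3 had 22.3 and 27.3, then 21.1 and 20.1, then 17.6 and 14.7 RPKM, a log2 fold change of -0.64 ± 0.16 (limma adjusted p = 0.0134). The Itgb3 call was lost without 21 h library 2 or PBS library 2, with adjusted p up to 0.10. Itgb7, a beta chain best known from lymphocytes, had 14.5 and 20.1 RPKM with PBS and 17.7 and 17.4 at 21 h, a log2 fold change of 0.00 ± 0.18 (95% interval -0.41 to 0.42). Itgb4 had 45 and 34 reads with PBS and 17 and 20 at 21 h, and it did not pass (log2 fold change -0.46 ± 0.33, limma adjusted p = 0.295). By reads it was at 0.644 times the PBS rate (95% exact binomial interval 0.423 to 0.963, counting error only). Without the trend in the spread it did pass, as lower (limma adjusted p = 0.0410).

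Since Itgb1 pairs with many alpha chains, its footprints were set against the summed RPKM of 9 numbered alpha chains and Itgav in each library. The ratio was 0.981 and 1.04 with PBS, 1.06 and 1.10 at 6 h and 1.18 and 1.22 at 21 h, without overlap between the groups. In RNA it was 0.839 and 0.883, then 0.905 and 0.982, then 1.16 and 1.09. In both assays the 21 h ratios were above those with PBS in every library.

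**Figure D3:**
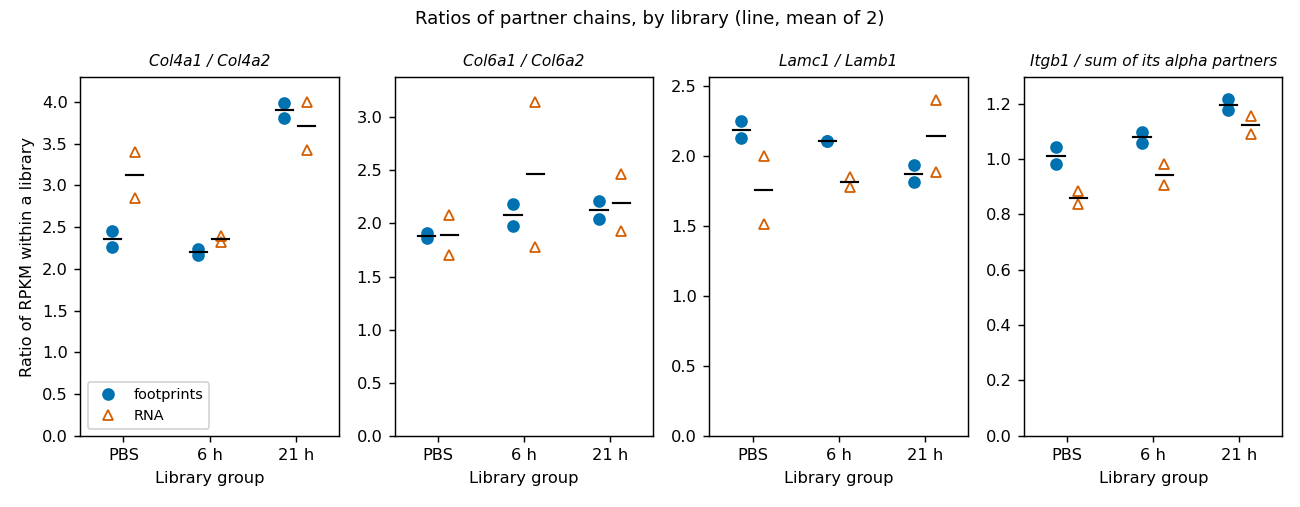
Ratios of RPKM within each library for 4 sets of partner chains, in footprints (filled circles) and RNA (open triangles), with lines at the mean of 2 libraries. In footprints the 21 h ratios of Col4a1 to Col4a2 (3.99 and 3.81) are above both PBS ratios (2.46 and 2.27). Those of Col6a1 to Col6a2 (2.05 and 2.21) are also above both PBS ratios (1.91 and 1.86), by less.

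Set directly against 6 h, footprints at 21 h were lower for 14 of the 23 members and higher for none (limma, adjusted p under 0.05), whereas 15.7% of all transcripts were called lower. Of all 10383 transcripts, 1634 were called lower and 1555 higher. Time in culture and length of exposure to Cis cannot be told apart in this comparison. The 14 were Col4a1, Col4a2, Col4a5, Col18a1, Col6a1, Col6a2, Itga1, Itga3, Itga6, Itgb1, Itgb5, Lama5, Lamb1 and Lamc1. Their log2 fold changes ran from -1.77 ± 0.18 for Col4a2 to -0.43 ± 0.08 for Itgb1 (SE). Without 6 h library 1 the count was lower, and the calls of Itga3, Lama5 and Lamb1 were among those lost. The share of all transcripts called in that fit was not taken. Lamb1 was also lost without 6 h library 2.

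The next question was how far RNA changed. At 6 h no member passed in RNA by limma and neither did any other transcript (0% of 9443), though 1086 transcripts and 3 members (Itga6, Lamc1 and Col4a1) had an unadjusted p under 0.05. The members were lower, as were 5.81% of all transcripts at that p. With voom on the recovered reads these 3 passed, all lower, while 1.82% of all transcripts were called lower (172 lower and 57 higher of 9443). At 21 h 10 of the 21 tested members had lower RNA and 1 had higher RNA, while 12.2% of all transcripts were called lower and 11.6% higher. The members' median log2 fold change was -0.67, against 0.02 for all transcripts. RPKM without scaling gave 8 lower and 2 higher, and the median of all transcripts was then 0.10, a shift of 0.08. The share of all transcripts called without scaling was not taken, so these counts have no background beside them. The count of 11 depended on single libraries: it fell without either PBS library or either 21 h library, and rose without either 6 h library. The shares of all transcripts called in those fits were not taken. Whether the background moved alike is therefore not known.

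The 10 lower members in RNA were Col18a1, Col4a2, Itga2, Col4a1, Itgb5, Lamb1, Lamc1, Itga6, Lama5 and Col6a1. Col18a1 RNA had 10.96 and 9.79 RPKM with PBS, 9.003 and 7.97 at 6 h and 3.22 and 3.59 at 21 h, a log2 fold change of -1.55 ± 0.19 (SE, limma adjusted p = 0.000667). Col4a2 had 5.42 and 4.97, then 4.68 and 4.97, then 2.06 and 2.15, a log2 fold change of -1.19 ± 0.22 (limma adjusted p = 0.00492). Col4a1 had 15.4 and 16.9, then 10.9 and 11.9, then 7.08 and 8.61 RPKM, a log2 fold change of -1.08 ± 0.16 (limma adjusted p = 0.00178). For these 3 collagens both 21 h libraries were below every other library.

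Itgb5 RNA had 16.1 and 15.1 RPKM with PBS, 13.5 and 14.6 at 6 h and 8.43 and 6.89 at 21 h, a log2 fold change of -1.06 ± 0.17 (SE, limma adjusted p = 0.00240). Itga2 had 3.43 and 3.20, then 1.56 and 2.25, then 1.21 and 1.28 RPKM, a log2 fold change of -1.19 ± 0.29 (limma adjusted p = 0.0157). Lamb1 was at -0.95 ± 0.21, Lamc1 at -0.72 ± 0.17 and Itga6 at -0.68 ± 0.14 on the log2 scale. The groups with PBS and at 21 h did not overlap for any of them. Both 21 h RNA libraries were below both PBS libraries for 13 of the 21 members, against 26.0% of all 9443 transcripts. Without a PBS or 21 h library Itga2, Lamb1, Lamc1, Itga6, Lama5 and Col6a1 lost their call in at least 1 case, with adjusted p up to 0.219 over all alternatives. Col18a1, Col4a1, Col4a2 and Itgb5 kept theirs in every alternative.

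Col6a1 RNA had 12.3 and 13.9 RPKM with PBS and 9.01 and 9.57 at 21 h, a log2 fold change of -0.55 ± 0.16 (SE, limma adjusted p = 0.0354). Lama5 had 8.10 and 7.75 RPKM with PBS and 5.66 and 4.58 at 21 h, a log2 fold change of -0.67 ± 0.21 (limma adjusted p = 0.0479). Both calls depended on the processing. They were lost without scaling, without the trend in the spread, with no filter on low values and without any single PBS or 21 h library.

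The abundant receptor chains Itgb1 and Itga3 showed little difference in RNA. Itgb1 had 83.0 and 87.1 RPKM with PBS and 81.9 and 89.2 at 21 h, a log2 fold change of -0.08 ± 0.09 (95% interval -0.28 to 0.13). Itga3 had 31.6 and 28.8 RPKM with PBS and 26.2 and 29.9 at 21 h, a log2 fold change of -0.19 ± 0.14 (95% interval -0.50 to 0.12). Their PBS and 21 h libraries overlapped. Itgb7 RNA was at 2.57 and 5.01 RPKM with PBS and 6.88 and 8.92 at 21 h. Its log2 fold change of 0.94 ± 0.32 did not pass in the main fit (limma adjusted p = 0.0619). It did pass without scaling, with voom and with the replicate number as a block, so the call depends on the processing. Lamb3 had 1.33 and 1.06 RPKM with PBS and 1.59 and 1.97 at 21 h, and Itga5 3.43 and 3.38 and then 5.29 and 4.69, neither of which passed.

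Against 6 h, RNA at 21 h was lower for 4 of the 21 members and higher for none, and 8.21% of all transcripts were called lower (limma). Of all 9443 transcripts, 775 were called lower and 711 higher. The 4 were Col18a1 at -1.34 ± 0.19, Col4a2 at -1.16 ± 0.22, Itgb5 at -0.99 ± 0.17 and Col4a1 at -0.66 ± 0.16 on the log2 scale (SE). RPKM without scaling gave 3 lower and 1 higher, and the median of all transcripts was then 0.15 against 0.01 with scaling, a shift of 0.14. Here too the share of all transcripts called without scaling was not taken. The Col4a1 call was lost without scaling, without the trend in the spread, and without 6 h library 1 or 2 or 21 h library 1, with adjusted p up to 0.104.

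Translation efficiency (TE), the footprint change relative to the RNA change, was tested in a single model of both assays, by how far the effect of Cis differed between them. No member passed at 6 h, and none of 9295 transcripts did (0%), with 710 at an unadjusted p under 0.05 and no member among them. Voom called 4 transcripts higher and 10 lower at 6 h, with no member among them. At 21 h no member passed by limma, against 0.409% of all transcripts, while 9 members had an unadjusted p under 0.05, all with lower TE, and 7.32% of all transcripts had lower TE at that p. The members' median log2 difference in TE was -0.45 against -0.04 for all transcripts. The footprint change was below the RNA change for 19 of 21 members (90.5%) and for 54.8% of all 9295 transcripts, values that share the PBS libraries.

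The 9 members were Itgb1, Col6a1, Lamc1, Col4a2, Lamb3, Itga3, Col3a1, Col4a1 and Itgb7. Itgb1 had a log2 difference in TE of -0.50 ± 0.12 (SE, limma adjusted p = 0.106) and a ratio of footprint to RNA RPKM of 4.15 ± 0.24 with PBS, 4.51 ± 0.32 at 6 h and 2.84 ± 0.18 at 21 h. Col6a1 was at -0.73 ± 0.18 (limma adjusted p = 0.119), with ratios of 4.55 ± 0.42, 4.94 ± 0.62 and 2.67 ± 0.15. Lamc1 was at -0.74 ± 0.20 (limma adjusted p = 0.147), with ratios of 3.75 ± 0.48, 3.56 ± 0.16 and 2.17 ± 0.30. In each of these 3 the ratio at 21 h was below those with PBS and at 6 h by more than their SDs. Voom on the recovered reads called these 3 lower and no member higher, and 0.839% of all transcripts lower (78 lower and 73 higher of 9295). Itga2 was at 0.04 ± 0.32 and Lamb2 at 0.05 ± 0.35, the members whose footprint change was not below the RNA change.

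**Figure D4:**
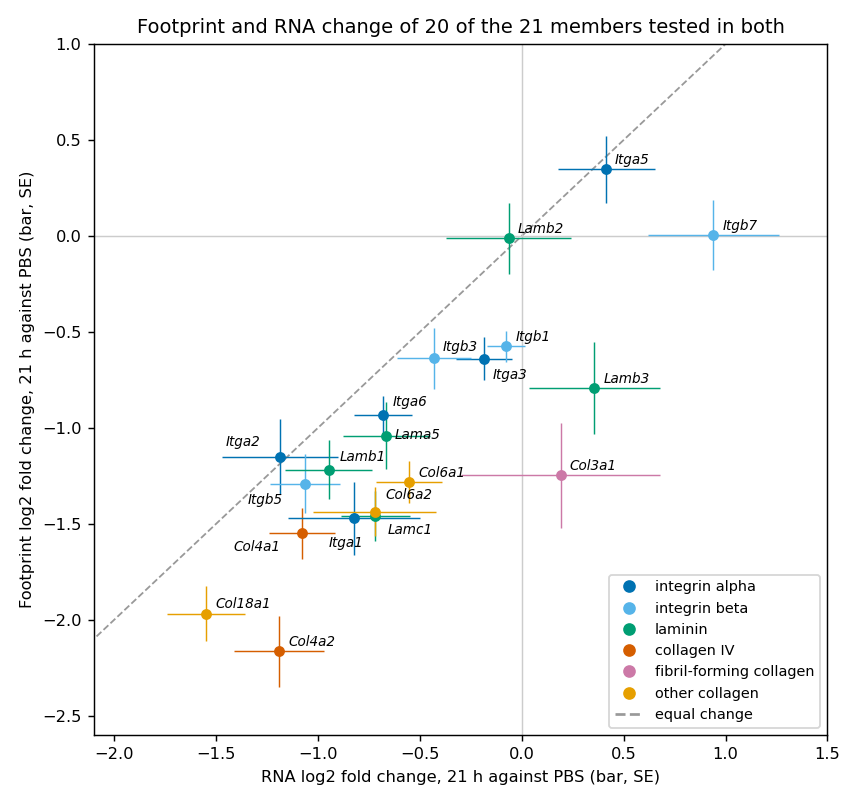
Log2 fold changes at 21 h against PBS in RNA (horizontal axis) and footprints (vertical axis) for 20 of the 21 members tested in both, with SE bars and a dashed line of equal change. All plotted members but Itga2 and Lamb2 lie below the line, and Col4a2 (-1.19 in RNA, -2.16 in footprints), Lamb3 and Col3a1 lie far below it. The last 2 rest on few RNA reads. Lamb3 had 16 and 15 with PBS and 18 and 20 at 21 h, and Col3a1 had 4 and 26 and then 19 and 8. RNA reads at 21 h were also few for Col4a2 (31 and 29), Itga2 (20 and 19) and Itga1 (18 and 21).

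The members differ in the length of the gene from which they are transcribed, a property the rule did not use. By RefSeq annotation on GRCm38.p6, tested members spanned from 10.7 kb (Lamb2) to 214 kb (Col4a5). The 6 members of at least 100 kb measured in RNA had a median log2 fold change of -1.07 at 21 h (range -1.55 to -0.72), against -0.86 for all 981 transcripts of that span. The 8 members of 40 to 100 kb had -0.55 against -0.14, and the 7 shorter ones -0.06 (-0.72 to 0.94) against 0.14. Across the 21 members the log2 fold change in RNA had a Pearson r of -0.65 and a Spearman rho of -0.74 with log10 span, and across 9368 transcripts -0.43 and -0.38. All points share the same libraries, and the length over which reads were counted had r of -0.38 with the change in RNA of the members, so these are a description across genes.

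In footprints the members' medians were -0.55 under 40 kb, -0.86 at 40 to 100 kb and -1.55 at 100 kb or more, each below the median of all transcripts of the same span (0.17, -0.26 and -1.08). Pearson r with log10 span was -0.66 in footprints (n = 23), and 0.00 for TE (n = 21), where all 9234 transcripts had -0.23. Col6a1 and Col6a2, with spans of 17.3 and 27.9 kb, are short genes whose footprints fell by 1.28 and 1.44 on the log2 scale.

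**Figure D5:**
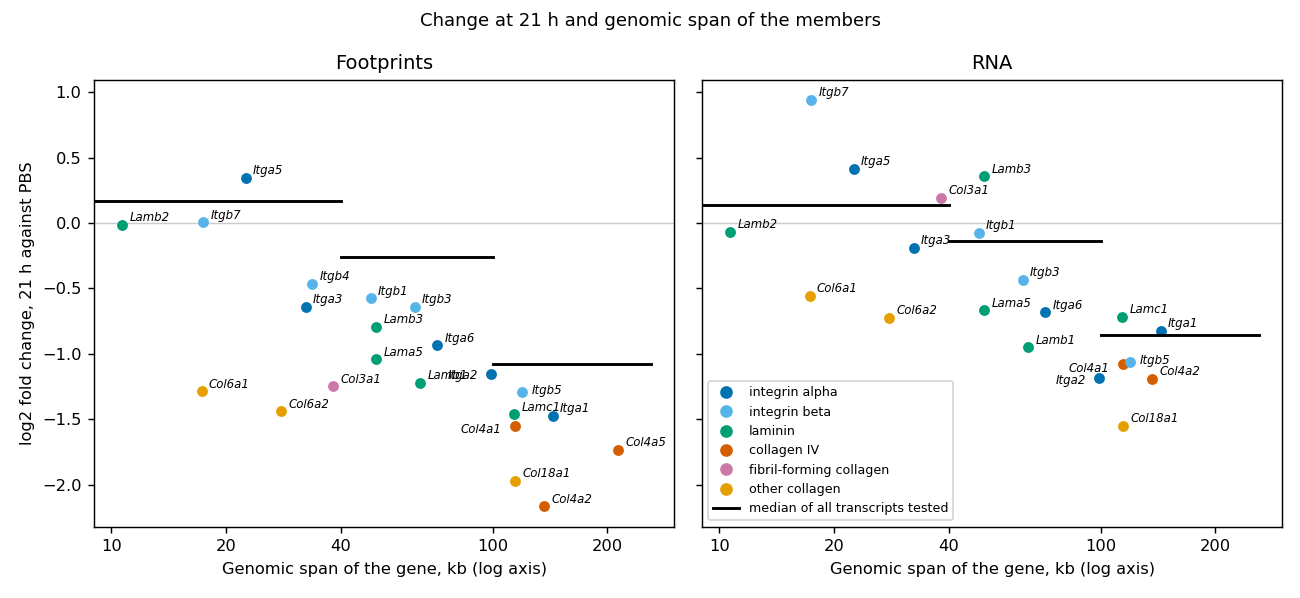
Log2 fold change at 21 h against PBS (vertical axis) by genomic span in kb (log axis) for members in footprints (left) and RNA (right); black lines are medians of all transcripts tested under 40 kb, from 40 to 100 kb and from 100 kb, drawn over the plotted range. All members of at least 100 kb lie below 0 in both assays.

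The other 27 members were too low to test in footprints, 10 of them with at most 3 reads in every footprint library. Their summed reads were 374 with PBS, 252 at 6 h and 220 at 21 h, which depends on the rule, since genes read only after Cis are not members. Col7a1, the anchoring fibril collagen of skin and other epithelia, had 19 and 27 footprint reads with PBS, 20 and 16 at 6 h and 32 and 58 at 21 h, 2.69 times the PBS rate at 21 h (95% exact binomial interval 1.86 to 3.92, counting error only). Col1a1, the main chain of type I collagen, had 8 and 11, then 12 and 11, then 13 and 26 reads, 2.82 times the PBS rate (1.59 to 5.17). The RPKM of both 21 h libraries was above both PBS libraries for these 2 of the 27 members and for no other, against 10.4% of the 2401 untested transcripts with a PBS footprint read.

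Lower reads at 21 h were seen in Col5a1, Col6a3, Col15a1 and Col27a1. Col5a1, a chain that regulates fibril width, had 37 and 40 footprint reads with PBS, 24 and 20 at 6 h and 4 and 7 at 21 h, 0.196 times the PBS rate (0.0941 to 0.371). Col6a3 had 26 and 16, then 13 and 6, then 0 and 2 reads, 0.0654 times the PBS rate (0.00767 to 0.252). Col15a1, a basement membrane collagen related to Col18a1, had 12 and 14, then 3 and 4, then 1 and 2 reads, 0.159 times the PBS rate (0.0307 to 0.517). Col27a1 had 18 and 5 reads with PBS and none at 21 h, at least 5.58-fold lower against a floor of 3 reads over the group, and its RNA had 23 and 9 reads with PBS and 2 and 1 at 21 h. Over the 27 untested members, both 21 h libraries were below both PBS libraries for 10, against 20.1% of the 2401 untested transcripts with a PBS footprint read. The rule sets this direction in part, since a member needed a PBS read, as in Lama3 with 1 read in each PBS library and none at 21 h.

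At the edge of the rule, Col23a1, Col2a1, Itga4, Itga9, Lama2 and Lama4 entered with 1 PBS footprint read. Outside it, with none, Lamc3 had 2 footprint reads at 6 h and 3 at 21 h, each in 1 library, Col6a4 had 2 and 2 at 6 h and 2 in 1 library at 21 h, and Col6a6 had 5 and 9 RNA reads with PBS and no footprint read in any library.

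Genes that work with these chains were described by lists of partners, whose counts stand beside the same background of 20.2% lower and 18.9% higher in footprints at 21 h. Integrins named by letters are outside the rule, and of these only Itgav, the alpha V chain, was tested: it had 145 ± 9.5 RPKM with PBS, 123 ± 3.42 at 6 h and 78.0 ± 3.57 at 21 h (SD, n = 2), and it fell by 0.92 on the log2 scale (limma adjusted p = 0.000159). Of 28 tested integrin activators and adhesion adaptors, 12 fell and 3 rose. The lowest log2 fold change among those called was that of Tns3, which links integrins to actin (-2.37 ± 0.13, from 52.2 ± 1.47 to 9.99 ± 1.17 RPKM), and the highest that of its relative Tns2 (0.79 ± 0.22, from 7.58 ± 1.58 to 13.6 ± 0.66). The Tns2 call was lost without PBS library 2 or 21 h library 2, with adjusted p up to 0.138.

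Of 17 partners and other matrix receptors, 10 fell and 1 rose, from the proteoglycan Sdc2 at -1.93 ± 0.25 to the tetraspanin Cd63 at 0.38 ± 0.09 on the log2 scale (SE). Of 20 tested enzymes of collagen folding and crosslinking, 7 fell and none rose. Plod2, a collagen lysyl hydroxylase, was lowest at -0.81 ± 0.12 and Ppib, a prolyl isomerase of the collagen folding complex, was the least changed of those called at -0.24 ± 0.08. The call of Ppib (limma adjusted p = 0.0486) was lost when any 1 library was left out and that of Cd63 without PBS library 1, 21 h library 2 or the trend in the spread, with adjusted p up to 0.201 and 0.0678. Of 17 other matrix and basement membrane proteins, 9 fell and 2 rose. Hspg2, the basement membrane proteoglycan perlecan, was at -1.79 ± 0.24 and Ccn1, a matricellular integrin ligand, at 0.89 ± 0.15. Of 20 tested matrix proteases and their inhibitors, 3 fell and 5 rose, from the sheddase Adam10 at -1.06 ± 0.10 to Plau, the urokinase, at 1.21 ± 0.17 (15.0 ± 1.496 RPKM with PBS and 36.4 ± 6.24 at 21 h).

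In RNA at 21 h the same lists had, beside 12.2% lower and 11.6% higher among all transcripts, 6 lower and 1 higher of 27 adaptors, 6 and 1 of 16 partners and receptors, 3 and 0 of 17 collagen enzymes, 5 and 2 of 14 other matrix proteins and 2 and 2 of 17 proteases and inhibitors. Itgav RNA was lower too, at -0.57 ± 0.13 on the log2 scale (SE, limma adjusted p = 0.0143).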

How the data were processed

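Footprints (RNase I fragments) and RNA were sequenced from lysates of KPC cells. For each library the authors deposited RPKM per representative transcript, without pooling, over the coding sequence for footprints and the transcript for RNA. The submitters' processing notes name cutadapt, STAR and GRCm39, without versions. Transcripts not listed were set to 0. Reads were recovered from RPKM and length, and 100% of the values came out whole (tolerance 0.01 reads). Intervals and the floor of 3 reads cover counting error only.

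Libraries of an assay were brought to a common scale with median-of-ratios factors. Transcripts reaching an average of 1 scaled RPKM were tested (10383 for footprints, 9443 for RNA, 9295 for TE) on log2(RPKM + 0.5), with the 3 groups of an assay in a model of limma 3.58.1 (eBayes with a trend) under R 4.3.3. The pseudocount understates changes of low genes. P-values are two-sided and were adjusted over all transcripts by the method of Benjamini and Hochberg (threshold 0.05). For TE the model held all 12 libraries and tested the difference between assays. Means and SDs (n = 2) use RPKM without scaling.

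The members, gene lists and the rule for named genes were chosen with earlier results of these data known, so no p-value is given for a list. Named were the 3 highest members of each class by footprints and by RNA, all members called, the members at the edge of the rule and, of each partner list, the genes called with the lowest and highest change; other genes were named after their values were seen. Same-numbered libraries did not deviate together. Spans (98.2% of transcripts matched) and promoter windows are from RefSeq (GRCm38.p6). The fits were tested on simulated data, with changes planted only in transcripts with many reads. That test does not cover members with few reads. Python 3.11.15, pandas 2.3.3, numpy 2.4.6 and matplotlib 3.10.9 were used. A member and an allele of the line are not reported here and the member is left out of the figures, though counts and medians include it. Alternatives are given at the end.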

Additional observations from a re-analysis of the deposited data

Results flagged for a closer look

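The change against PBS differed between the 2 time points for 14 members in footprints and 4 in RNA, by a direct limma test of 21 h against 6 h (adjusted p under 0.05 over all transcripts). Over all transcripts, 15.7% were called lower in footprints and 8.21% in RNA. Both changes share the same PBS libraries, so this compares the 21 h with the 6 h Cis libraries. Time in culture and length of exposure to Cis cannot be told apart. In footprints the difference on the log2 scale was -1.77 for Col4a2, -1.60 for Col18a1, -1.51 for Col4a5, -1.17 for Col6a2, -1.16 for Col6a1, -1.05 for Col4a1 and -1.01 for Itgb5. It was -0.93 for Itga1, -0.86 for Lamc1, -0.78 for Lama5, -0.68 for Lamb1, -0.55 for Itga3, -0.54 for Itga6 and -0.43 for Itgb1. In RNA it was -1.34 for Col18a1, -1.16 for Col4a2, -0.99 for Itgb5 and -0.66 for Col4a1. All of these were lower at 21 h than at 6 h.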

How the results depend on the processing

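Each result was recomputed with other pseudocounts (0.1 and 1), other filters, RPKM without scaling, eBayes without the trend, voom on recovered reads, the replicate number as a block, and each library left out. Counts of members called moved by over 1.5 times in some cases. At 6 h in footprints, voom gave 8 and a mean of at least 5 RPKM gave 1, and leaving out a library gave 0 to 1. At 6 h in RNA, voom gave 3, and for TE at 21 h it gave 3. Without single libraries the count for RNA at 21 h also moved by over 1.5 times (11 with all). Counts stayed within 1.5 times without single libraries for footprints at 21 h, footprints against 6 h and RNA against 6 h. The shares of all transcripts called were not taken for fits that left out a library, so those counts have no background. The block moved no count by over 1.5 times (18 for footprints and 11 for RNA at 21 h), and same-numbered libraries had correlations of deviations between -0.0143 and 0.0215. Among members, the block lost 1 RNA call at 21 h and gained that of Itgb7 (adjusted p = 0.0207, limma).

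Over 92 single-gene results and 1315 values, 1215 stayed on the same side, 60 lost and 31 gained the call, and 9 changed sign, none of them called. Without scaling, Lamb2 was at 0.021 in footprints and 0.00860 in RNA, and Itgb1 RNA at 0.0073, at 21 h. When single libraries were left out, Lamb2 ran from -0.059 to 0.027 in footprints (0.0125 without 21 h library 1 and 0.027 without PBS library 2) and from -0.30 to 0.16 in RNA (0.14 without 21 h library 1 and 0.16 without PBS library 1). Itgb7 footprints ran from -0.25 without PBS library 1 to 0.25, and Col3a1 RNA from -0.51 without PBS library 1 to 0.57. The cause was not tested. Depth limits the 16 members with 10 to 100 PBS footprint reads and the 13 with fewer than 10.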
